A study of Mus musculus with 4 samples.

Results

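The genes described are the insulin-like growth factor (IGF) group of 8 members, Igf1, Igf1r, Igfbp2, Igfbp3, Igfbp4, Igfbp5, Igfbp6 and Igfbp7, taken by symbol from the 32285 genes in the feature tables of a Visium series of the infarcted mouse heart. Visium counts mRNA molecules by their unique molecular identifiers (UMIs) in barcoded spots under a tissue section, and a spot holds several cells of different types. The series has 4 heart sections, each from a different adult ICR mouse (1 per time point), taken 1, 4, 7 or 14 days after the left anterior descending (LAD) artery was tied off for good to cause a myocardial infarction. The methods give these mice as 12-week-old females, the hearts were fresh frozen and cut at 10 µm, and no sham or uninjured section was analysed here. The labels and methods put the first section at day 1, the time used here, while another passage of the study's text names a different day.

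Within each section, spots with at most 1% hemoglobin UMIs were ranked on the share of their UMIs in Myh6 and Myl2, 2 genes of the cardiomyocyte contractile apparatus, and cut into 4 bins of equal size. Q1 is the quartile of spots with the lowest share and Q4 the quartile with the highest. Of 9102 spots, 7503 remained, 1890, 1679, 1848 and 2086 on days 1, 4, 7 and 14. Levels are in CPM, the UMIs of a gene for every 1000000 UMIs of its bin. All 8 members had at least 1 UMI in every section, and 7 of them passed the minimum of 100 UMIs over all remaining spots. Igfbp2 did not pass, with 9 UMIs.

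IGF1 is a secreted growth factor that acts through the receptor tyrosine kinase IGF1R and, from there, through IRS proteins, PI3K and AKT. Most circulating and tissue IGF is held by IGF-binding proteins, which prolong its life, keep it from the receptor or, once cleaved, release it. IGFBP7 binds IGF only weakly and is better known as a secreted protein of vessels and matrix, and IGFBP6 prefers IGF2. In the heart, macrophages, fibroblasts and vascular cells are known sources of these secreted proteins, while IGF1R is widely expressed.

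Igfbp2 (chr1:72824503-72852474, + strand) and Igfbp5 (chr1:72857932-72874884, - strand) are neighbours on chromosome 1 in the GENCODE vM21 annotation of GRCm38. Igfbp3 (chr11:7206086-7213923, - strand) and Igfbp4 (chr11:99041244-99054392, + strand) lie apart on chromosome 11. Igf1 is at chr10:87858265-87937042 (+), Igf1r at chr7:67952827-68233668 (+), Igfbp6 at chr15:102144362-102149511 (+) and Igfbp7 at chr5:77349240-77408041 (-). The promoters of 3 members are shown because their patterns form the contrast described below, Igf1 and Igfbp4 with nearly parallel levels and Igfbp3 with a different course. Each window runs from 250 bases before to 50 bases after the RefSeq start on GRCm38.p6, 5′ to 3′ on the strand of the gene, at chr10:87860861-87861160 (+), chr11:99040994-99041293 (+) and chr11:7213874-7214173 (-). The Igf1 window lies inside the GENCODE gene. Capitals mark matches on either strand to the TATA box (TATAAA), the GC box (GGGCGG) or TGANTCA, where N is any base. The last is a looser pattern than the AP-1 site, so a match to it need not be an AP-1 site.

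Igf1: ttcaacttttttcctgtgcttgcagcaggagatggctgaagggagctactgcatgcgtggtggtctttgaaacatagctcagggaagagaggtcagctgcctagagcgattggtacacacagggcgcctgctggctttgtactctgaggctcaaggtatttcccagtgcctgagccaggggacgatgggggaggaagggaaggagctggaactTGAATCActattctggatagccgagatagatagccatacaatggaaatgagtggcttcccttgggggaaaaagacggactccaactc
Igfbp4: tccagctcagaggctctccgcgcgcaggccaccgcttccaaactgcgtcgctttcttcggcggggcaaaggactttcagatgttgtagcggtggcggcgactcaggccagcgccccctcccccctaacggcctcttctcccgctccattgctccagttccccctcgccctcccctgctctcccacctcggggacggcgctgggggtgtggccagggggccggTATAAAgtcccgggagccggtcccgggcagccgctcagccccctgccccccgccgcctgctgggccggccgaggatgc
Igfbp3: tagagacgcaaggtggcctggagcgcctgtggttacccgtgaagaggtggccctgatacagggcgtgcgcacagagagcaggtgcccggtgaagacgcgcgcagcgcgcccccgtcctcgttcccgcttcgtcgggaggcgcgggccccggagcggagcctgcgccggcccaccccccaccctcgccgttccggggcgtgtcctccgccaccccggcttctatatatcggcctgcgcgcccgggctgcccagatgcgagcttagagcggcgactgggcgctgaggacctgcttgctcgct

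The Igf1 window held 1 match to TGANTCA, with A at N, the Igfbp4 window 1 TATA box, and the Igfbp3 window none of the 3 patterns. Of 32851 windows of all genes, 13.6% held the TATA box, 35.7% the GC box and 7.81% the pattern TGANTCA. No measurement of binding exists in these data, and the matches are given as letters only.

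What the bins hold differed between days. The median Myh6+Myl2 share in Q1 was 0.755%, 0.154%, 0.200% and 1.01% on days 1, 4, 7 and 14. The 12 cardiomyocyte genes used as a marker list (Tnnt2, Ttn, Ryr2 and others) summed to 38710 CPM in Q1 on day 1 and 49209 on day 14, against 14632 on day 4 and 11401 on day 7, so Q1 still held much myocardium on the first and last day. The 12 fibroblast genes (Col1a1, Col3a1, Postn, Dcn and others) summed to 3301, 39995, 43633 and 11565 CPM in Q1 on days 1, 4, 7 and 14, against 2890 to 4090 in Q4. For the 12 macrophage genes (C1qa, Cd68, Csf1r and others) the Q1 sums were 1365, 7743, 5604 and 1998 CPM, and the 7 neutrophil genes had 417, 77.6, 80.9 and 165 CPM. The 12 endothelial genes had 1433 to 1794 CPM in Q1 and 1419 to 1703 in Q4. 1 of the neutrophil genes was at 0 in Q1 on each of days 1, 4 and 7, and no gene of the other 4 lists was at 0 in any Q1. A list of 9 mural (vessel wall) genes, none at 0, had 538, 1999, 1152 and 599 CPM in Q1, against 399 to 471 in Q4. A list of 5 adipocyte genes had 311, 6.16, 780 and 4.80 CPM in Q1, with 3 genes at 0 on day 14, against 10.8 to 27.6 in Q4. Depth per spot was lower in Q1 late in the series, with medians of 6389, 6525, 2826 and 2330 UMIs against 5971, 9221, 5515 and 8278 in Q4. Mitochondrially encoded transcripts made up 18.6%, 8.73%, 10.1% and 29.8% of the UMIs in Q1, against 27.1%, 33.2%, 27.3% and 32.8% in Q4. They are part of the total over which CPM is taken. On day 7, 115 of the 462 Q1 spots held 10 or more UMIs of genes of fast skeletal muscle.

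On average over the sections, spots poor in Myh6 and Myl2 had more mRNA of the IGF ligand and of most binding proteins than spots rich in them. Over the 4 sections, 5 of the 7 members tested rose in Q1 against Q4 (edgeR, adjusted p under 0.05) and none fell, with Igf1, Igfbp3, Igfbp4, Igfbp6 and Igfbp7 higher by 1.40 to 1.78 on the log2 scale. Igf1r and Igfbp5 did not pass. Day 1 differed from this average. After the scaling (TMM) factors of the fit, only Igfbp3 and Igfbp7 were clearly higher in Q1 that day, with ratios to Q4 of 2.98 and 1.85. Igfbp4, Igfbp5 and Igfbp6 were lower, at 0.717, 0.778 and 0.663. Of the 11619 genes tested, 27.5% were higher and 25% lower in Q1. The median log2 fold change was 1.42 over the 7 members and 0.07 over all genes. Fewer cells of a type and less RNA per cell cannot be told apart in such sums. In every section the macrophage, neutrophil and mural lists were higher in Q1 than in Q4, and the cardiomyocyte list was lower. The fibroblast list was higher in Q1 on the later days, but on day 1 it was at 3301 CPM against 3588 in Q4. The endothelial list had no steady direction, with 1794 against 1512 CPM on day 1 and 1525 against 1703 on day 7. The adipocyte list also changed direction between days. What part these lists had in the members' differences was not tested.

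**Figure D1:**
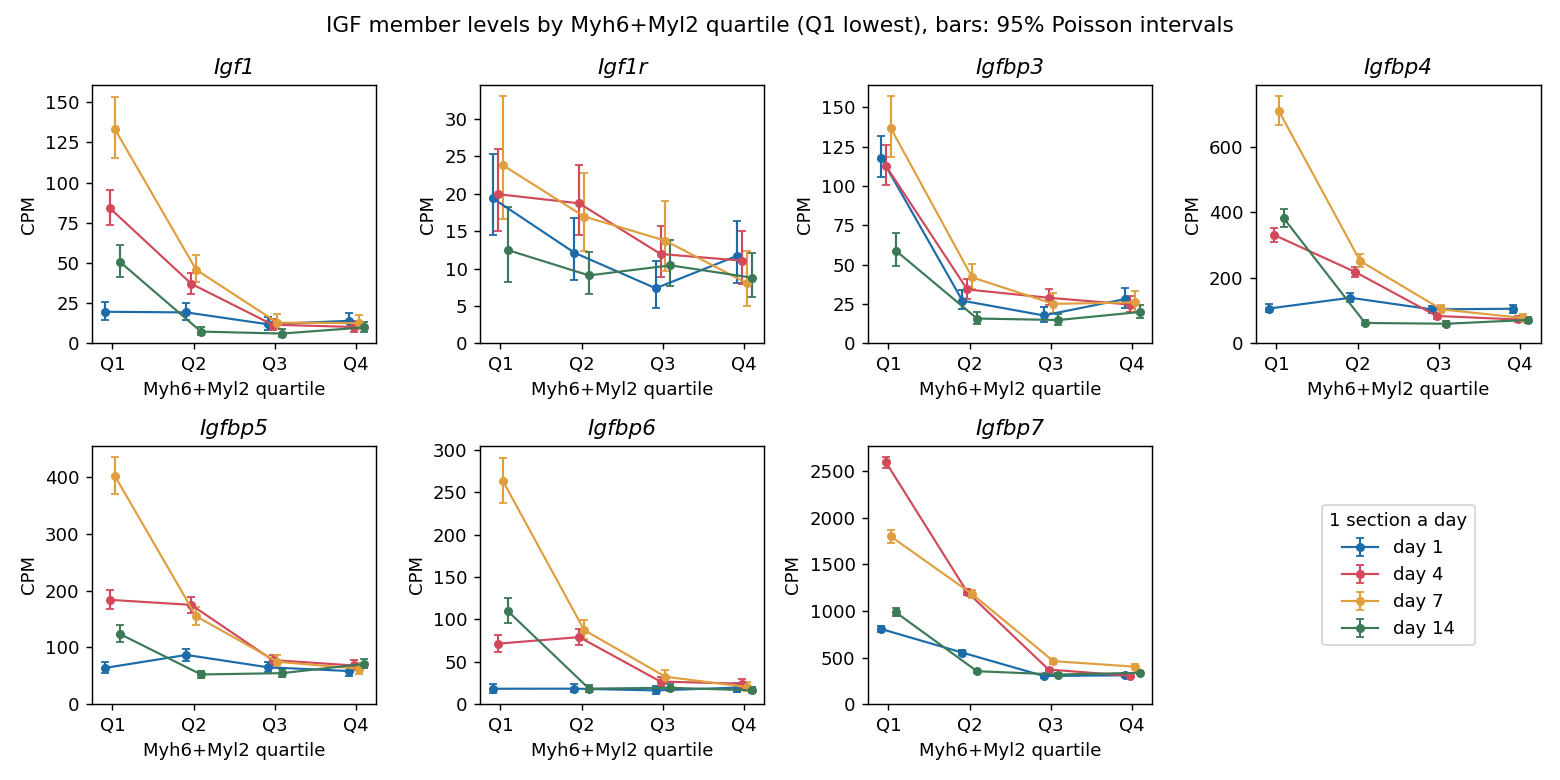
CPM of the 7 members with at least 100 UMIs (vertical axes) in the Myh6+Myl2 quartiles Q1 to Q4 (horizontal axes) of each section, with 95% Poisson intervals. The day 7 line is the highest in Q1 for Igf1, Igfbp4, Igfbp5 and Igfbp6, the day 4 line for Igfbp7, and the day 1 line is the lowest in Q1 for Igf1, Igfbp4, Igfbp5, Igfbp6 and Igfbp7.

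Igf1, the ligand, measured 19.7, 84.1, 133 and 50.9 CPM in Q1 on days 1, 4, 7 and 14. In Q4 it measured 14.1, 10.3, 12.7 and 10.0 CPM on the same days. The Q1 values of days 4, 7 and 14 lay above every Q4 value with no overlap of their intervals, while the day 1 ratio of 1.40 had a 95% interval from 0.915 to 2.15. The ratios of Q1 to Q4 on the later days were 8.19 (5.81 to 11.8), 10.5 (7.25 to 15.7) and 5.09 (3.53 to 7.46). Over the 4 sections, Igf1 rose in Q1 by 1.78 ± 0.39 (SE) on the log2 scale (edgeR, adjusted p = 0.00203), and by CPM it was higher in 4 of 4 sections. On the scale of the fit, after its TMM factors, the day 1 ratio was 0.996 (0.651 to 1.53) and the later ratios were 4.23, 6.32 and 4.01. No UMI of the antisense gene Igf1os was counted.

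Igf1r, the receptor, varied less than its ligand. Its levels were 19.4, 19.9, 23.8 and 12.5 CPM in Q1 and 11.7, 11.1, 8.06 and 8.80 CPM in Q4 on days 1, 4, 7 and 14. By CPM each section had more in Q1, by 1.66, 1.80, 2.95 and 1.42 times, and the day 14 interval of 0.824 to 2.40 included 1. After the TMM factors the ratios were 1.18, 0.931, 1.77 and 1.12, with only day 7 clear of 1. In the fit Igf1r was 0.25 ± 0.21 (SE) higher in Q1 on the log2 scale and did not pass (edgeR, adjusted p = 0.319). That result depended on the scaling. Scaled by total UMIs in place of TMM factors, which raised the median of all genes to 0.71, the Igf1r difference was 0.89 (adjusted p = 0.00242). All 7 members passed with that scaling, at 0.89 to 2.41, beside 58.2% of all genes higher and 10.6% lower.

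Igfbp3, which carries most IGF in the circulation, was higher in Q1 from day 1 on, by CPM and after the TMM factors alike. It measured 118 CPM (95% interval 105 to 132) in Q1 on day 1, and 113, 137 and 59.0 CPM on days 4, 7 and 14. The Q4 levels were 28.2, 24.8, 26.1 and 20.0 CPM. Q1 and Q4 did not overlap on any day, and the CPM ratios of 4.18, 4.55, 5.24 and 2.95 had a lowest bound of 2.22 and a highest of 7.00. After the TMM factors the ratios were 2.98, 2.35, 3.14 and 2.32. In the fit Igfbp3 rose by 1.42 ± 0.17 (SE) in Q1 (edgeR, adjusted p = 1.29e-05). It was also the only member called between Q1 and Q2, higher in Q1 by 1.40 ± 0.17 on the log2 scale (edgeR, adjusted p = 0.000224), where 15.3% of all genes were higher and 16.5% lower. Its levels in Q2 were 27.2, 34.3, 42.0 and 15.9 CPM, so most of its excess lay in the lowest quartile on every day.

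Igfbp4, an inhibitor of IGF action that is cleaved by the protease PAPP-A, started level by CPM. Q1 had 107 CPM and Q4 106 CPM on day 1, a ratio of 1.01 (95% interval 0.855 to 1.19), which the TMM factors turned to 0.717 (0.608 to 0.844). In Q1 it measured 331, 709 and 382 CPM on days 4, 7 and 14, against 73.2, 77.9 and 71.8 CPM in Q4. By CPM the 3 later ratios were 4.52, 9.10 and 5.32, and the smallest of their lower bounds was 3.95. After the TMM factors the ratios were 2.34, 5.47 and 4.18. Over the sections Igfbp4 rose by 1.48 ± 0.42 (SE) in Q1 (edgeR, adjusted p = 0.00989). The call was lost without day 4, day 7 or day 14, with adjusted p of 0.0550, 0.0710 and 0.0618, while the difference was still 1.56, 1.13 and 1.19.

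Igfbp6, the binding protein that prefers IGF2, was likewise level by CPM on day 1, at 18.3 CPM in Q1 and 19.6 CPM in Q4, with a ratio of 0.663 (0.444 to 0.987) after the TMM factors. Q1 against Q4 was then 71.4 to 24.2 CPM on day 4, 263 to 20.3 on day 7, and 110 to 16.4 at the end. By CPM, the day 7 ratio of 12.9 (95% interval 9.69 to 17.6) was the highest of any member and day with UMIs in both bins. After the TMM factors the ratios of days 4, 7 and 14 were 1.52, 7.77 and 5.27. Igfbp6 rose in Q1 by 1.56 ± 0.51 (SE) on the log2 scale (edgeR, adjusted p = 0.0212), higher in 3 of 4 sections, and without day 7 or day 14 the difference was 1.03 (adjusted p = 0.130) or 1.19 (adjusted p = 0.145). Its ligand Igf2, also known as a fetal growth factor, measured 8.77, 14.1, 42.8 and 9.60 CPM in Q1 and 12.0, 8.43, 11.5 and 7.85 CPM in Q4, apart beyond counting error on day 7. It did not pass with TMM factors (log2 difference 0.05 ± 0.27, adjusted p = 0.898) and passed with total UMIs (0.69 ± 0.29, adjusted p = 0.0447).

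Igfbp5, a matrix-bound binding protein, had 63.9, 184, 402 and 124 CPM in Q1 on days 1, 4, 7 and 14. Its Q4 levels stayed between 58.5 and 70.9 CPM. The day 1 ratio was 1.09 (0.880 to 1.36) by CPM, or 0.778 (0.626 to 0.967) after the TMM factors. The later ratios were 2.69, 6.42 and 1.75 by CPM, or 1.39, 3.86 and 1.37 after the TMM factors. The fit gave 0.71 ± 0.33 (SE), which did not pass (edgeR, adjusted p = 0.0835). Without day 7 the difference was 0.22 (adjusted p = 0.568), and without day 1 it was 0.96 (adjusted p = 0.0303), so single sections decided its size and its call.

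Igfbp7, the vessel and matrix protein, was higher in Q1 on every day. It measured 807, 2593, 1799 and 986 CPM in Q1 on days 1, 4, 7 and 14, and 310, 305, 403 and 336 CPM in Q4. The ratios by CPM were 2.60 (2.41 to 2.82), 8.50 (7.99 to 9.05), 4.46 (4.15 to 4.80) and 2.93 (2.74 to 3.14), so day 4 stood above the other 3 sections beyond counting error. After the TMM factors the ratios were 1.85, 4.39, 2.68 and 2.31. Over the sections Igfbp7 rose by 1.40 ± 0.23 (SE) in Q1 (edgeR, adjusted p = 0.000155). In Q2 it had 553, 1202, 1182 and 354 CPM, and the day 14 level there came within counting error of Q4.

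Igfbp2, a binding protein of fetal tissue and liver, was near the limit of detection. Of its 9 UMIs, 5 lay in Q1 (1, 3 and 1 on days 1, 4 and 7), 3 in Q2 of day 7 and 1 in Q3 of day 14, and none in Q4. Its levels in Q1 therefore allow no order of days, and no fit tested it.

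**Figure D2:**
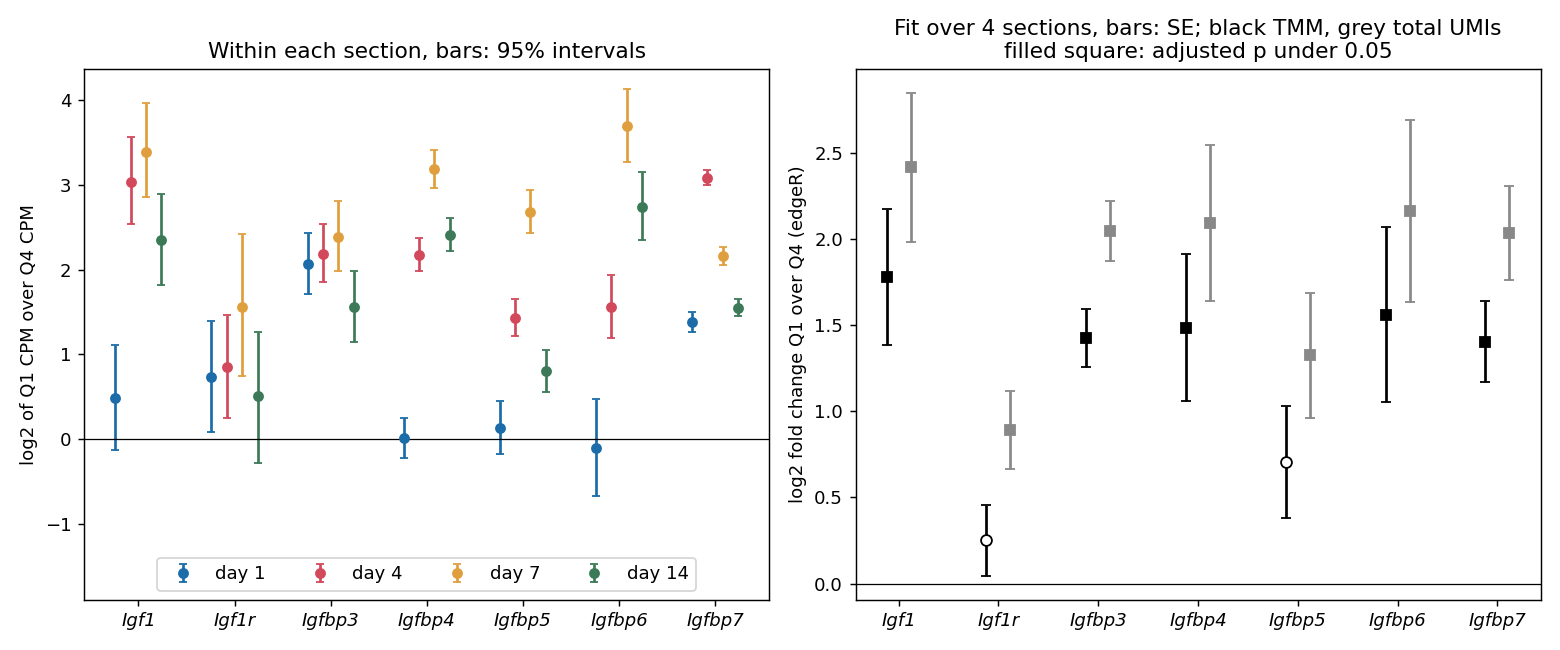
Left, log2 of Q1 CPM over Q4 CPM (vertical axis) for 7 members in each section, with exact 95% intervals for counting error. Right, the edgeR log2 fold change with its SE over 4 sections, scaled by TMM factors (black) or by total UMIs (grey), where filled squares passed an adjusted p of 0.05. On day 1, by CPM without TMM factors, only Igf1r, Igfbp3 and Igfbp7 have intervals above 0.

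Neighbouring bins differed less. Between Q2 and Q3, no member passed (edgeR, adjusted p), 2 of 7 had an unadjusted p under 0.05, and DESeq2 called 1. Those 2 were Igf1, at 0.96 ± 0.40 (adjusted p = 0.247), and Igfbp7, at 0.82 ± 0.23 (adjusted p = 0.0950). In that comparison 0.955% of all genes were higher in Q2 and 0.0172% lower. Of the 11619 genes, 2026 had an unadjusted p under 0.05 there (edgeR), and DESeq2 called 221. Between Q3 and Q4 no gene passed in either direction, 0 of 11619 (0%) with edgeR and 0 with DESeq2, while 168 genes but no member had an unadjusted p under 0.05. In Q1 against Q2, Igf1 was at 0.94 ± 0.36 (edgeR, adjusted p = 0.0648) and passed with DESeq2 (adjusted p = 0.0441).

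The order of the days differed between Q1 and its lowest spots. In the lowest decile of the ranking, the fibroblast list summed to 3104, 47619, 41778 and 44669 CPM on days 1, 4, 7 and 14. The cardiomyocyte list was at 30986 CPM there on day 1, against 3928, 8423 and 7111 CPM on the later days, so this decile still held much myocardium on day 1. The day 14 section had the highest level of Igf1, Igfbp4 and Igfbp6 in the lowest decile, although day 7 had led for these genes in Q1. Igfbp4 measured 92.6, 360, 658 and 1532 CPM in this decile on days 1, 4, 7 and 14, and the day 14 interval of 1396 to 1677 lay above the other 3. Igfbp6 measured 21.5, 66.8, 195 and 416 CPM, again with day 14 apart (347 to 495). For Igf1 the values were 22.6, 85.9, 144 and 206 CPM, and the intervals of day 7 (117 to 174) and day 14 (158 to 264) overlapped. Skeletal muscle moved with these values, since 56 of the 185 spots in the lowest decile of day 7 held it and its marker list summed to 37349 CPM there, against 242 CPM on day 14. Without such spots day 7 had 209 CPM of Igf1, no longer below day 14. Igfbp4 was then at 943 CPM (851 to 1043) and Igfbp6 at 231 CPM (187 to 283) on day 7, both still below day 14.

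Igfbp7 had 847, 2749, 1569 and 2904 CPM in the lowest decile, so that day 14 no longer fell below day 4 as it did in Q1, and day 7 rose to 2280 CPM (2136 to 2432) without skeletal muscle spots. Igfbp3 showed no such climb, at 196, 172, 132 and 193 CPM, and 187 CPM on day 7 without skeletal muscle spots, so its day 1 level was already as high as any later one. Igfbp5 reached 347 CPM on day 14 and 320 on day 7, with overlapping intervals, against 140 on day 4 and 63.5 on day 1. Igf1r measured 21.5, 20.1, 24.2 and 29.5 CPM on 9 to 21 UMIs a section, with intervals that all overlapped. On day 14 the next decile had already lost most of this, with Igfbp4 at 297 CPM and the fibroblast list at 8896 CPM. The lowest decile of day 14 was shallow, with 209 spots, 305447 UMIs and a median of 1140 UMIs per spot, and its neutrophil list (1041 CPM) and mesothelium list (357 CPM) were the highest of the 4 days.

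**Figure D3:**
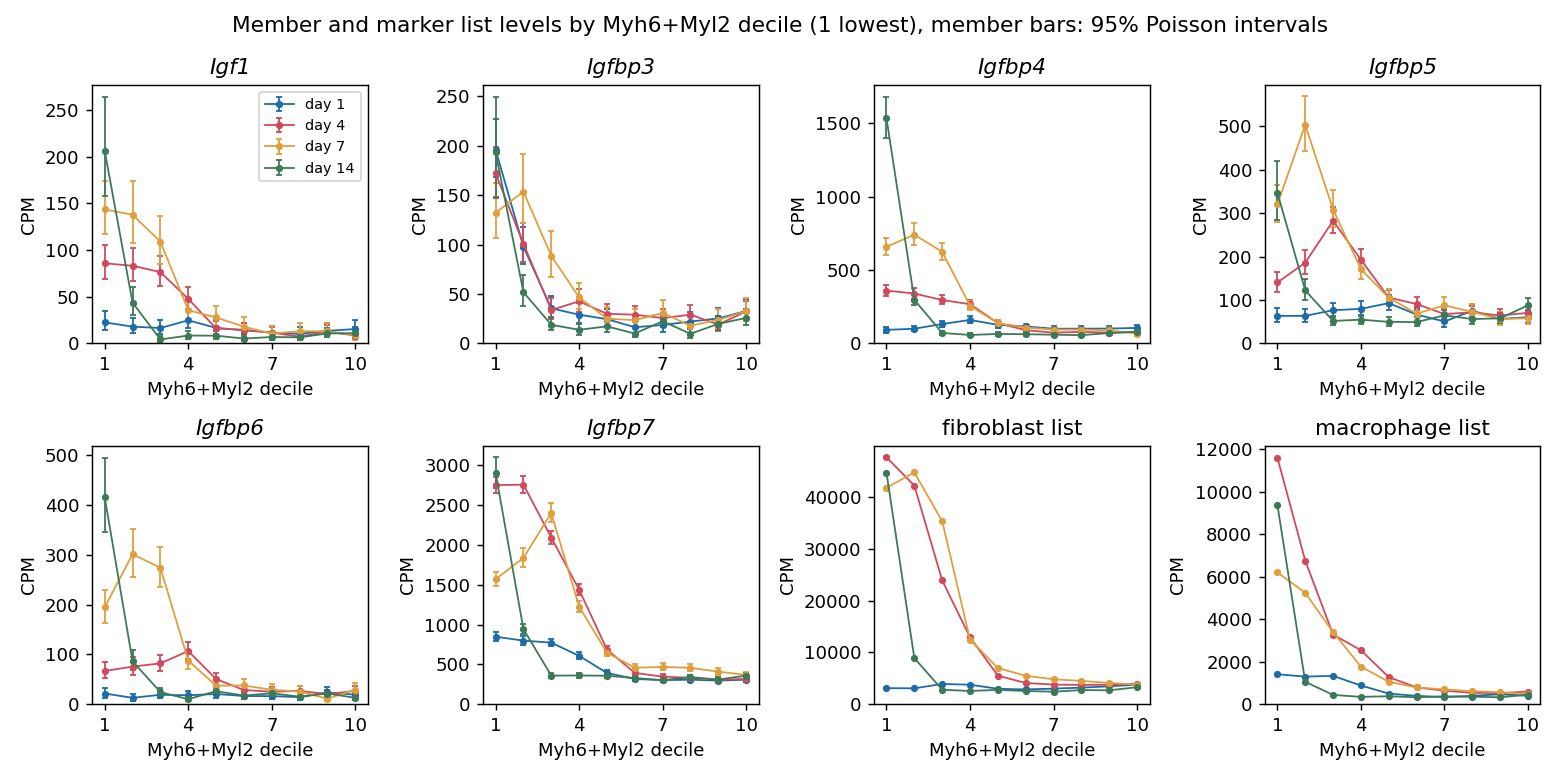
CPM (vertical axes) of 6 members and of the summed fibroblast and macrophage marker lists in deciles of the Myh6+Myl2 ranking (horizontal axes, 1 lowest) in each section, with 95% Poisson intervals for the members. In decile 1 the day 14 line is highest for Igf1, Igfbp4, Igfbp6 and Igfbp7 and drops within 1 or 2 deciles, while for Igfbp3 days 1, 4 and 14 start close together.

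A cut at a fixed share was also made. Spots with less than 0.5% of UMIs in Myh6 and Myl2, a limit chosen after the data were seen, numbered 62, 337, 407 and 176 on days 1, 4, 7 and 14. Igfbp4 measured 118, 351, 703 and 1592 CPM in them, Igf1 39.2, 84.5, 140 and 197 CPM, and Igfbp6 56.7, 71.5, 243 and 446 CPM. Without the 110 skeletal muscle spots among those of day 7, that day had 925 CPM of Igfbp4 and 295 CPM of Igfbp6, below day 14 in both, and 193 CPM of Igf1, level with it. Igfbp3 measured 240, 136, 135 and 201 CPM, and 182 CPM (155 to 214) on day 7 without skeletal muscle spots. Its day 1 value was the highest, but on 55 UMIs. The day 1 interval of 181 to 312 overlapped that of day 14 (151 to 262) and that of day 7 without skeletal muscle spots. With 1 mouse a day, no difference between days was tested, and the intervals cover counting error only.

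Where in Q1 the members lay was asked by cutting Q1 of each section at the median of its macrophage, fibroblast or endothelial share. No member passed in any of the 3 comparisons (edgeR, adjusted p). For the macrophage and the fibroblast cut no gene of 11607 passed in either direction (0%), although 2236 and 1706 genes had an unadjusted p under 0.05 and DESeq2 called 528 and 352 genes, none of them a member. For the endothelial cut 0.327% of genes were higher in the richer spots and 0.293% lower.

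By CPM, Igf1 was higher in the macrophage-rich spots of every section. It measured 30.1, 98.6, 187 and 191 CPM in them from day 1 to day 14, and 11.3, 73.5, 87.2 and 15.6 CPM in the poorer spots. The difference was 1.12 ± 0.37 (SE) on the log2 scale, with an unadjusted p of 0.0137 and an adjusted p of 0.152 (edgeR). With the outer tertiles of Q1 in place of the cut at the median, Igf1 passed at an adjusted p of 0.0351. The fibroblast cut gave Igf1 nearly the same difference, 1.12 ± 0.47 (adjusted p = 0.329), and 57.6%, 62.9%, 64.1% and 86.6% of macrophage-rich spots were also fibroblast-rich on days 1, 4, 7 and 14. A spot holds several cell types, and whether Igf1 went with macrophages or with fibroblasts was not tested. The cuts also separated other tissue. The cardiomyocyte list was at 5765, 7085 and 15268 CPM in the macrophage-rich spots of days 4, 7 and 14, and at 21123, 15101 and 57733 CPM in the others. Of the 115 skeletal muscle spots of day 7, 104 fell among the macrophage-poor and 106 among the fibroblast-poor spots. Without skeletal muscle spots, Igf1 on day 7 was at 194 against 129 CPM for the macrophage cut and 165 against 155 CPM for the fibroblast cut, and the fits gave 1.04 ± 0.37 (adjusted p = 0.191) and 1.02 ± 0.49 (adjusted p = 0.400).

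Igfbp7 was higher by CPM in the endothelium-rich spots of every section, by a small margin. The values were 868, 2774, 1973 and 1048 CPM from day 1 to day 14, and 747, 2407, 1639 and 915 CPM in the poorer spots. The difference was 0.20 ± 0.06 (SE) on the log2 scale and did not pass (edgeR, adjusted p = 0.0705). It passed with total UMIs (adjusted p = 0.0380) and with spots of at least 1000 UMIs (adjusted p = 0.0412). Igfbp3, at 0.31 ± 0.13 (adjusted p = 0.498), was higher by CPM in endothelium-rich spots on days 1 and 4 and lower on days 7 and 14. Only on day 4 (150 against 74.4 CPM) did its intervals not overlap.

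**Figure D4:**
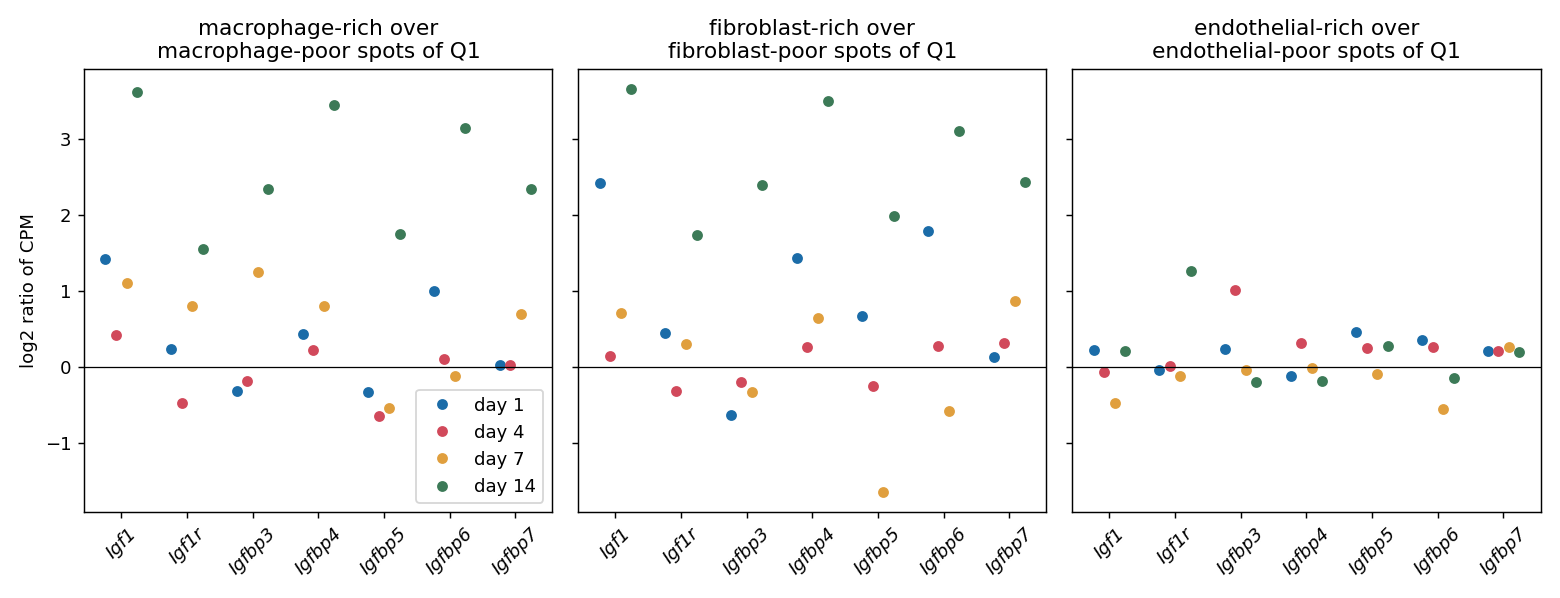
Log2 ratio of CPM (vertical axes) in the spots of Q1 that were rich in a marker list over those that were poor in it, for 7 members and 4 sections, with the macrophage, fibroblast and endothelial lists from left to right. Igf1 lies above 0 on all 4 days in the macrophage and fibroblast panels, Igfbp7 lies above 0 in all 3 panels, and the day 7 point of Igfbp5 lies far below 0 in the fibroblast panel. Without skeletal muscle spots, Igfbp7 on day 7 was at 2214 CPM in the macrophage-rich and 2485 CPM in the macrophage-poor spots. Scaled by total UMIs, the median log2 difference of all genes was 0.41, 0.42 and 0.02 for the macrophage, fibroblast and endothelial cuts.

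Igfbp5 on day 7 lay away from the fibroblast-rich spots. It had 182 CPM in them and 569 CPM in the fibroblast-poor spots of Q1, and Igfbp6 had 206 and 307 CPM. In the 63 Q1 spots of day 7 with at least 2 UMIs of the mesothelium list (Msln, Upk3b, Upk1b, Lrrn4, Wt1 and Krt19), a limit chosen after the data were seen, Igfbp5 measured 1331 CPM (95% interval 1190 to 1484) against 217 CPM in the other 399. Igfbp6 measured 741 against 168 CPM and Igfbp3 295 against 105 CPM in the same spots, whereas Igf1 (147 against 130 CPM) and Igfbp4 (782 against 695 CPM) overlapped in their intervals and Igfbp7 was lower (1089 against 1940 CPM). On day 14 the 22 such spots had 494 against 112 CPM of Igfbp5 and 554 against 95.2 CPM of Igfbp6. Unlike on day 7, those spots also had more Igf1 (165 against 47.1 CPM), Igfbp4 (1362 against 350) and Igfbp7 (2573 against 933), besides Igfbp3 (284 against 51.6). Q1 of day 14 held much myocardium, with the cardiomyocyte list at 49209 CPM. The lowest decile of that day as a whole had 206 CPM of Igf1, 1532 of Igfbp4 and 2904 of Igfbp7. It had 193 CPM of Igfbp3, 347 of Igfbp5 and 416 of Igfbp6. What part mesothelium had in these differences was not tested. Days 1 and 4 had only 1 and 5 such spots in Q1. Without the mesothelium spots of all sections, the Igfbp5 difference between Q1 and Q4 was 0.42 ± 0.23 (adjusted p = 0.141) and that of Igfbp6 was 1.31 ± 0.44 (adjusted p = 0.0240).

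The 115 day 7 spots of Q1 with skeletal muscle UMIs differed in the other direction for most members. Igf1 measured 47.4 CPM in them against 176 in the other Q1 spots, Igfbp4 317 against 903, and Igfbp7 725 against 2329, while Igfbp5 was at 453 against 377 CPM. Without such spots Igf1, Igfbp3, Igfbp4, Igfbp6 and Igfbp7 kept their calls between Q1 and Q4.

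A list of 27 further genes of the pathway covered the other ligand and receptors, proteases and stanniocalcins that govern binding proteins, and the signalling chain below the receptor. Of these, 23 were tested, 2 rose and 8 fell in Q1 against Q4 (edgeR, adjusted p under 0.05), with a list median of -0.34, beside the 27.5% and 25% over all genes. Scaled by total UMIs, 11 rose and 1 fell, with a list median of 0.30, against 58.2% of all genes higher and 10.6% lower, so that only Shc1, Tmem219 and Stc2 kept their calls.

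Shc1, an adaptor of receptor tyrosine kinases, was higher by 0.75 ± 0.18 (adjusted p = 0.00218) and Tmem219, a receptor for IGFBP3, by 0.87 ± 0.18 (adjusted p = 0.000783). Tmem219 had 23.4, 46.4, 43.5 and 16.8 CPM in Q1 on days 1, 4, 7 and 14, against 9.21 to 12.0 CPM in Q4. Stc2, an inhibitor of PAPP-A, fell by 1.69 ± 0.32 on the log2 scale (adjusted p = 0.000388) and was lower in 4 of 4 sections, at 3.29, 2.90, 4.08 and 9.60 CPM in Q1 and 10.3, 8.96, 8.83 and 12.1 CPM in Q4. The other 7 calls, which hold for TMM scaling only, were lower Insr (-1.13), the insulin receptor, Irs1 (-1.18), Pik3r1 (-0.89) and Akt2 (-0.81) of the signalling chain, Tsc2 (-0.76), Foxo3 (-0.62) and the protease gene Htra1 (-0.52), the last 2 of which turned to 0.01 and 0.11 with total UMIs. By CPM, without the TMM factors, Htra1 was higher in Q1 in 3 sections and lower in 1, against its call. Irs1, Foxo3 and Tsc2 were higher in 2 sections and lower in 2. Insr measured 37.6, 32.3, 19.0 and 44.1 CPM in Q1 and 57.8, 47.1, 58.7 and 34.5 CPM in Q4, lower in 3 of 4 sections.

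Stc1, the other stanniocalcin, had 37 of its 109 UMIs in Q1 of day 1, 13.5 CPM against 1.38 in Q4, and missed the threshold at 1.63 ± 0.68 (adjusted p = 0.0549). Pappa, the protease that cleaves IGFBP4, had 77 UMIs in all, Igfals 69 and Pappa2 4, too few to be tested. Pappa measured 1.10, 9.43, 12.9 and 1.44 CPM in Q1 on days 1, 4, 7 and 14, against 0, 0.790, 0.384 and 1.19 CPM in Q4. Its intervals were apart on days 4 and 7 and overlapped on days 1 and 14. Igfbp1 had 0 UMIs, which allows up to 0.0585 CPM over all remaining spots by a limit of 3 counts, a different limit from the Poisson intervals. Igf2r, the receptor that clears IGF2, did not pass (-0.34 ± 0.18, adjusted p = 0.126).

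**Figure D5:**
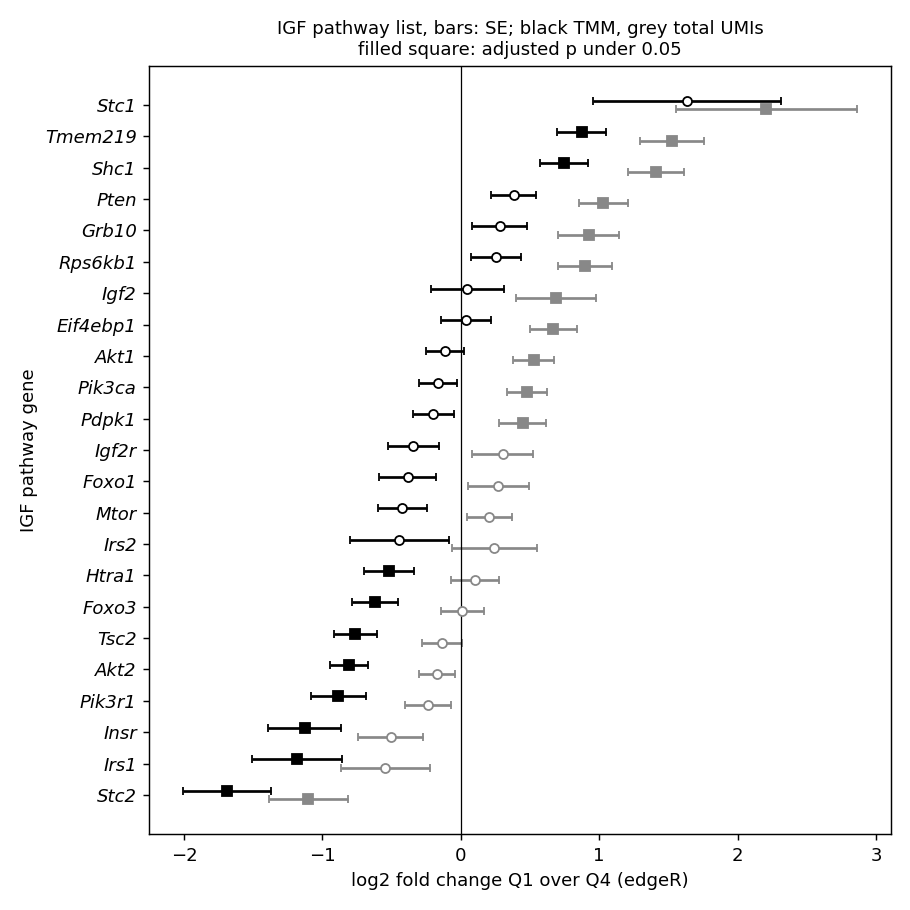
The edgeR log2 fold change of Q1 over Q4 with its SE (horizontal axis) for the 23 tested genes of the IGF pathway list (vertical axis), scaled by TMM factors (black) or total UMIs (grey). Filled squares passed an adjusted p of 0.05, and Shc1, Tmem219 and Stc2 passed under both scalings on the same side of 0.

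As a description over the 16 libraries of quartile and section, which share sections and are not independent, the log2 levels of Igf1 and Igfbp4 ran most nearly in parallel of all member pairs (Pearson's r 0.980). The lowest r between members other than Igfbp2 was that of Igfbp3 with Igfbp6 (0.672). Among 4769 genes with at least 1000 UMIs, those most like Igf1 were Mmp23 (0.984), Tgfbr2 (0.982) and P3h3 (0.981). For Igfbp4 they were C1ra (0.982), Igf1 itself and Sfrp1 (0.971), for Igfbp5 Cst3 (0.972), Cpxm1 (0.961) and Sfrp1 (0.961), and for Igfbp6 Fbln5 (0.975), Nbl1 (0.969) and Fndc1 (0.967). Igfbp7 was closest to Bgn (0.991), Col5a2 (0.990) and Fstl1 (0.988), 3 genes of secreted matrix proteins. Hp (0.965) and Snrnp70 (0.957) were among the genes most like Igfbp3. Igf1r was closest to Abl1 (0.921), Slc1a5 (0.920) and Gpm6b (0.916). For Igfbp2, whose 9 UMIs give no reliable profile, the nearest were Cnih1 (0.883), 1810013L24Rik (0.865) and Pbrm1 (0.861).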

How the data were processed

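Spatial mRNA was counted by Visium in 4 sections, 1 mouse each. Per the labels and methods, the authors ran Space Ranger 1.3.0 on mm10 with manually aligned images, and deposited raw UMI counts of each gene in each spot, not normalized or pooled and before their later spot and gene filters. Here, spots over 1% hemoglobin (8 genes) were removed, spots ranked within sections on Myh6+Myl2, and UMIs summed per section and bin. The removal of spots near the tissue edge, positions and images were not used.

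edgeR 4.0.16 (limma 3.58.1, R 4.3.3) fitted sums with TMM factors, a block for section and robust quasi-likelihood F-tests, over genes with at least 100 UMIs, excluding Myh6 and Myl2 and, for cuts of Q1, the cutting list. P-values were adjusted by Benjamini-Hochberg over all tested genes at 0.05. Sections are the replicates (9 residual degrees of freedom for quartiles and 3 for cuts of Q1), so a call is an average difference over days that need not hold on each. Standard errors of the edgeR log2 fold changes were derived from the test, as the size of the change over the square root of its F statistic. Intervals are exact, Poisson for levels and conditional for ratios, at 95%, and cover counting error only.

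Named genes are the 8 members, pathway genes that were called or that a count needs, and the 3 genes most correlated with each member on log2(CPM + 1). Members, lists and tests were chosen with earlier results of these data known. The fits were run on simulated data in which few genes changed, as many up as down. That run cannot decide between TMM factors and total UMIs, because far more genes differed between Q1 and Q4 here. Alternatives were total UMIs, DESeq2 1.42.0, other gene minimums, no section block, each section left out, tertiles or deciles, another ranking list, no hemoglobin filter, spots of at least 1000 UMIs and, added after seeing the data, no skeletal muscle or no mesothelium spots. Depth was 9292678 to 15713779 UMIs a section. Of the Visium barcodes, 1332 occur in all 4 sections, since slides carry 1 barcode set. A gene that the rule for named genes picked is not reported here.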

Additional observations from a re-analysis of the deposited data

Results flagged for a closer look

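Spots removed for hemoglobin took no part in the comparisons and also held the members, in 5202684 UMIs. Pooled over the sections, Igf1 measured 33.3 CPM in them against 24.1 CPM in the remaining spots, Igf1r 14.2 against 12.7, Igfbp3 50.4 against 38.8 and Igfbp4 195 against 147 CPM. Igfbp5 measured 138 against 96.5 CPM, Igfbp6 62.1 against 41.4 and Igfbp7 714 against 673 CPM. The 2 pools weigh the days differently, with day 7 giving 1690399 of the 5202684 removed UMIs and 9292678 of the 51309053 remaining ones. These pooled differences therefore mix removed spots with day. The sections differed, with the removed spots higher in 3 of 4 sections for Igf1, Igfbp3, Igfbp5 and Igfbp6 and in 2 of 4 for Igf1r, Igfbp4 and Igfbp7. Igfbp7, for example, was at 328 against 484 CPM on day 1 and 1171 against 985 CPM on day 4. Keeping these spots changed no call between Q1 and Q4.

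The Igfbp6 ratio of Q1 to Q4 lay on different sides of 1. By CPM it was 0.932 on day 1, with a 95% interval (0.624 to 1.39) that includes 1, and 2.95 to 12.9 on the later days. After the TMM factors it was 0.663 (0.444 to 0.987) on day 1 and 1.52 to 7.77 on the later days. With 1 section a day this difference was not tested.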

How the results depend on the processing

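Between Q1 and Q4, no member changed sign under any of the alternatives run, and the 5 members called with edgeR and TMM were also called with DESeq2, with total UMIs, with either other gene minimum, without the section block, with tertiles or deciles, with the other ranking list and with each filter on spots. Single sections mattered more. Leaving out 1 section gave 3 to 6 members higher, and Igfbp4 and Igfbp6 were the calls lost. With all sections 27.5% of all genes were higher and 25% lower. The shares of all genes with a section left out are not given here, so these member counts cannot be set against them. Igfbp5 passed with total UMIs, with a minimum of 1000 UMIs, without day 1 and with the cardiomyocyte list as ranking (adjusted p 0.00563, 0.0327, 0.0303 and 0.0229). Over all genes, total UMIs gave 6762 higher and 1235 lower, and a minimum of 1000 UMIs gave 1676 and 1548, since fewer genes were tested. Between Q1 and Q2, where the main fit called 15.3% of all genes higher and 16.5% lower, Igf1 passed under 6 alternatives. Between Q2 and Q3, with 0.955% and 0.0172% in the main fit, Igfbp7 passed under 3. The cause was not tested.

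For the macrophage cut of Q1, outer tertiles called 1 member (Igf1), 578 genes higher and 811 lower, DESeq2 152 and 376, and spots of at least 1000 UMIs 92 and 15. Leaving out 1 section gave 0 to 260 higher and 0 to 778 lower. For the fibroblast cut, outer tertiles called 157 and 331 genes and DESeq2 60 and 292, and leaving out 1 section gave 0 to 1 and 0 to 179. For the endothelial cut, Igfbp7 passed with total UMIs and with spots of at least 1000 UMIs. The main fit of this cut called 0.327% of all genes higher and 0.293% lower. The shares of all genes under those other settings are not given here, so the Igfbp7 passes cannot be set against them. There DESeq2 called 1 gene higher and 0 lower, no section block 0 and 0, spots without skeletal muscle 59 and 60, and leaving out 1 section gave 17 to 59 and 16 to 56. With 3 residual degrees of freedom, these counts are unstable, and no list of genes other than the members is drawn from them.

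Bins of the same section are paired by the block for section in every fit, and its removal changed no member's call between Q1 and Q4. No paired analysis of the days was possible because each day has 1 section. Time and mouse cannot be told apart, and the low depth of Q1 on days 7 and 14 limits Igf1r, with 26 to 35 UMIs there, and Igfbp2.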
